A study of Arabidopsis thaliana with 18 samples.

Results

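Jasmonate synthesis, signalling and response genes are 34 Arabidopsis thaliana genes grouped by their known function. They comprise 11 genes of jasmonic acid synthesis (LOX2, LOX3, LOX4, LOX6, AOS, AOC1 to AOC4, OPR3 and DAD1), 4 of its conversion (JMT, JAR1, CYP94B3 and CYP94C1), the receptor gene COI1, 3 activators (MYC2, MYC3 and MYC4), 12 repressors (JAZ1 to JAZ12) and 3 response genes (VSP1, VSP2 and JR1). Of the 34, 21 stood in at least 1 of the 19 deposited tables of differential expression. Together these list 8444 genes, where 18651 to 22074 genes were tested for each. The 13 that stood in none were LOX2, JMT, COI1, MYC2, MYC3, MYC4, JAZ2, JAZ4, JAZ5, JAZ8, JAZ9, JAZ11 and JAZ12.

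The RNA came from protoplasts, cells freed of their walls by enzymes, of shoot apical meristems (SAMs) of the ap1cal double mutant, which forms many meristems in place of flowers. All 6 populations were sorted from the same line, which carried 3 reporters: pAtML1::mTag-BFP-ER for the epidermis, pREV::REV-2YPET for the central domain of the HD-ZIPIII factor REVOLUTA, and pmiR165a::GFP-ER for the periphery, where miR165/166 represses HD-ZIPIII genes. The epidermal populations carried the ML1 marker together with REV (epidermal REV cells), with miR165a (epidermal miR165a cells) or alone (epidermal gap cells). Sub-epidermal REV and sub-epidermal miR165a cells carried their domain marker without ML1. The all negative cells showed no marker. There were 3 libraries for each population, 18 in all, from plants that were 4 to 5 weeks old. As a model the line is limited by its reporters: a cell counts as a miR165a cell by promoter activity, as a REV cell by a transgenic REV fusion, and the all negative cells are whatever is left below the epidermis.

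Jasmonic acid is made from linolenic acid of plastid membranes, by lipases and lipoxygenases, then AOS and AOC in the plastid and OPR3 in the peroxisome. JAR1 joins it to isoleucine, and the conjugate lets the F-box protein COI1 bind JAZ proteins and mark them for destruction, which frees MYC2, MYC3 and MYC4 to act. Genes for synthesis, JAZ repressors and catabolic CYP94 enzymes are themselves switched on by the hormone, and wounding is its best known trigger. Tissue was cut and digested to free the protoplasts, and an effect of this on these genes was not tested. VSP1 and VSP2 encode vegetative storage proteins and JR1 a jacalin-related lectin, all long used as jasmonate markers in shoots.

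A gene was called in a comparison of 2 populations when the authors' DESeq2 table listed it, which required an adjusted p no higher than 0.05 and a log2 fold change of 1 or more in either direction. Values per library were not used here, since the tables hold 1 value per gene and comparison, so the depth of each library is not known here, and neither the spread between libraries nor how many of them share a direction can be given. The standard error (SE) of a fold change is the authors' own. For 15 members the listed fold changes link all 6 populations, and the level of each population, a mean normalized count, was solved from them and from the authors' mean over all libraries. For the members, the separate mean counts of 4 other deposited comparisons were 0.789 to 1.09 times those given by these levels. In bulk RNA from sorted cells, fewer cells of a type and less RNA per cell cannot be told apart.

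The sort markers followed the labels. ATML1, an epidermal homeodomain gene, had levels of 3257 to 3488 in the epidermal populations and 61.1 to 85.7 in the others. REV had 2298 and 2844 in the REV populations and 1022 to 1288 elsewhere. Cells were sorted on a REV fusion, whose reads may be part of the REV count, so this is not an independent check. MIR165A stood in no table. The 5 vascular markers summed to 2429 in sub-epidermal REV cells, 1098 in all negative cells and 143 to 179 in the other 4. FAMA and TGG1, of 3 markers of stomata and myrosin cells the 2 with levels, summed to 1993 in epidermal gap cells and to 164 to 1202 in the others. None of the markers with levels was at 0, and the part of these cell types in the values below was not tested.

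Epidermal REV cells ranked lowest for most members with levels, but no member was called between them and epidermal gap cells. The median log2 fold change of epidermal REV over gap cells was -0.47 for members and -0.40 for all genes with a value. In 14 of the 15 members with levels, epidermal REV cells had the lowest level of the 6 populations, and JAZ10 was the exception. Of the 3832 genes with levels, 49% had their lowest in epidermal REV cells, which was the most frequent lowest population of all genes too. Sub-epidermal REV cells had the highest level in 9 of the 15, against 19.8% of all genes with levels. Their lead over the next population was called in none of these, and ran from 0.03 (AOS) to 0.98 (AOC1) on the log2 scale. The heat map of levels shows these lowest and highest values of the REV cells in the 2 layers. All comparisons share libraries, since epidermal REV cells enter 5 of the 15, and their counts are not independent.

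**Figure D1:**
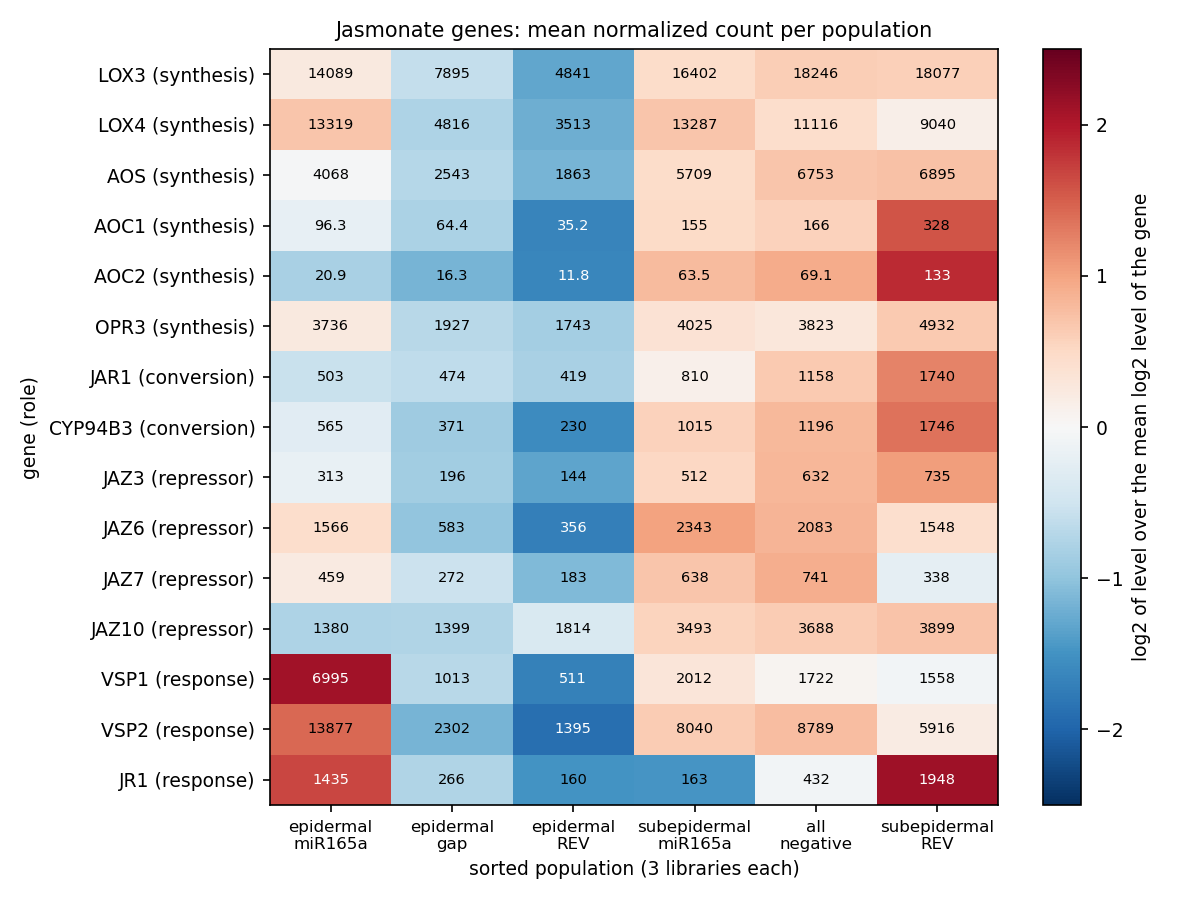
Mean normalized count (number in each cell) of the 15 members with levels in the 6 populations of 3 libraries each. Colours give log2 of the level over the gene's mean log2 level. Epidermal REV cells hold the lowest value in 14 of 15 rows, and JR1 is high in epidermal miR165a (1435) and sub-epidermal REV cells (1948).

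The 3 response genes showed the largest differences between domains. VSP1 (AT5G24780) had a level of 6995 in epidermal miR165a cells, 1013 in epidermal gap cells and 511 in epidermal REV cells. In the sub-epidermal populations it had 2012 in miR165a cells, 1722 in all negative cells and 1558 in REV cells. Epidermal miR165a cells were thus highest, epidermal REV cells lowest, and the 3 sub-epidermal populations lay close together between them. The log2 fold change of epidermal miR165a over epidermal REV cells was 3.78 ± 0.21 (SE, 13.7-fold, DESeq2 adjusted p = 2.02e-71), and that over gap cells was 2.79 ± 0.20 (adjusted p = 1.07e-38). Among the neighbours in the order of levels, the step from epidermal miR165a to sub-epidermal miR165a cells was called (1.80 ± 0.20, adjusted p = 6.71e-17), and the 4 lower steps, of 0.14 to 0.99, were not.

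VSP2 (AT5G24770) followed the same order at its top and bottom. Its level was 13877 in epidermal miR165a cells, 2302 in gap cells and 1395 in epidermal REV cells. Below the epidermis it was 8040 in miR165a cells, 8789 in all negative cells and 5916 in REV cells. Epidermal miR165a cells exceeded epidermal REV cells 9.95-fold (log2 3.31 ± 0.26, adjusted p = 1.45e-33) and gap cells 6.03-fold (2.59 ± 0.26, adjusted p = 5.96e-20). Their lead over all negative cells, 0.66 ± 0.26 on the log2 scale, was not called, whereas the drop from sub-epidermal REV to gap cells was (1.36 ± 0.26, adjusted p = 3.61e-06).

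JR1 (AT3G16470) changed its order with the layer. In the epidermis its level was 1435 in miR165a cells, 266 in gap cells and 160 in REV cells. Below it, the level was 163 in miR165a cells, 432 in all negative cells and 1948 in REV cells. The gene was therefore high in the epidermal miR165a and the sub-epidermal REV populations. Epidermal miR165a exceeded epidermal REV cells by a log2 fold change of 3.16 ± 0.52 (8.96-fold, adjusted p = 2.13e-08), and sub-epidermal miR165a cells lay below sub-epidermal REV cells by -3.58 ± 0.52 (11.9-fold, adjusted p = 3.57e-10). The highest levels, of sub-epidermal REV and epidermal miR165a cells, differed by -0.44 ± 0.52 (epidermal minus sub-epidermal, 95% interval -1.46 to 0.58) and were not called apart. Of the 15 comparisons JR1 was called in 9, and of the 9 within a layer or a domain in 6, the most of any member. JR1 overlaps AT3G16460, a lectin gene on the opposite strand, by 631 bases, and the library kit is not stated to mark strand. AT3G16460 had levels of 36.9 in epidermal miR165a cells, 21.6 in epidermal REV, 12.2 in sub-epidermal miR165a and 14.5 in sub-epidermal REV cells. Of the 5 vascular markers, ATHB8, AT5G57130 and PXY also peaked in sub-epidermal REV cells, and SUC2 and APL in all negative cells. The 5 summed to 179 in epidermal miR165a and 169 in epidermal REV cells, and their part in the values of JR1 was not tested.

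**Figure D2:**
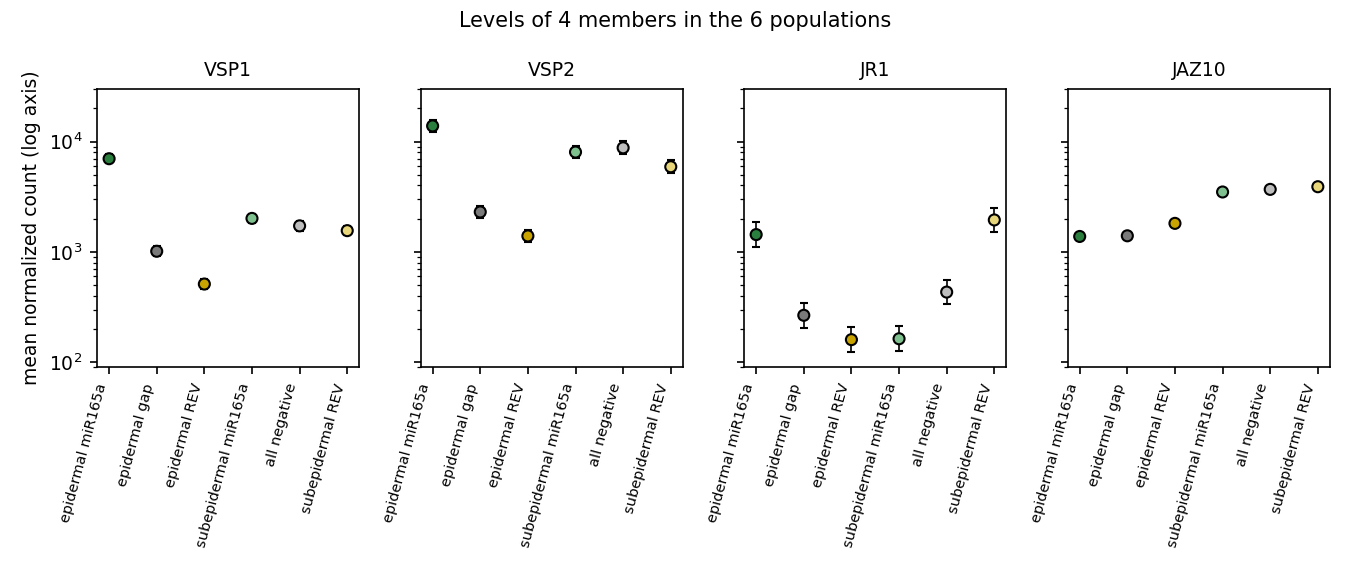
Mean normalized count (log axis) of VSP1, VSP2, JR1 and JAZ10 in the 6 populations. Points are levels solved from the deposited fold changes, and bars are 1 standard error of the log2 level, which could not be solved for JAZ10. VSP1 and VSP2 peak in epidermal miR165a cells (6995 and 13877), while JAZ10 is low in all 3 epidermal populations (1380 to 1814).

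VSP1 and VSP2 lie near each other on chromosome 5 (8507590 to 8509201 and 8500468 to 8502224, both on the minus strand of TAIR10.1). Their coding sequences share 88.2% of bases, with a longest identical run of 54 bases, and how reads that fit both were counted is not stated, so the split between them is uncertain. JR1 lies on chromosome 3 (5595282 to 5599224, minus strand). The 250 bases before the annotated start of each gene were searched on both strands for 2 sequences that MYC factors are known to bind, CACGTG (the G-box) and its variant AACGTG, whose matches in the members did not overlap. CACGTG stood in 6.49% of the 27443 windows of all protein-coding genes and AACGTG in 7.54%. At least 1 of them stood in 13.3% of all windows and in 13 of the 34 members (38.2%). It was as frequent among the 21 members listed in a table (8, 38.1%) as among the 13 listed in none (5, 38.5%), and stood in 7 of the 14 (50%) that were higher in epidermal miR165a than epidermal REV cells. A match is a description of these letters, not a binding site.

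The windows of the 3 response genes and of 2 further members that were low in epidermal REV cells, LOX4 and JAZ3, are printed as examples. Other members low in epidermal REV cells, among them LOX3, AOC2, OPR3, JAR1 and CYP94B3, have no match in their windows. Capitals mark matches to either sequence, read 5′ to 3′ along the gene. VSP1 has a variant match 170 bases before its start, LOX4 has 1 at 94 bases, and JAZ3 has G-boxes at 140 and 82 bases and a variant match at 155. VSP2 and JR1 have none in these windows.
VSP1 promoter (chr5:8509202-8509451, minus strand): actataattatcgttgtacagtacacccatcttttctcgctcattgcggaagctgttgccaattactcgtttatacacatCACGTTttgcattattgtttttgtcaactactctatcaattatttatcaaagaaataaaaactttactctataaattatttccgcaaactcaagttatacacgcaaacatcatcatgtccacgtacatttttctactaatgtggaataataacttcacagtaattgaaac
VSP2 promoter (chr5:8502225-8502474, minus strand): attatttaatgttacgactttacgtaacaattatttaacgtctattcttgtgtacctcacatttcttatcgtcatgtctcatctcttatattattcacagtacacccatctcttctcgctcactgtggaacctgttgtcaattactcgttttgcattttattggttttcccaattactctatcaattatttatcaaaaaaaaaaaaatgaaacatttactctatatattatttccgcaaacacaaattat
JR1 promoter (chr3:5599225-5599474, minus strand): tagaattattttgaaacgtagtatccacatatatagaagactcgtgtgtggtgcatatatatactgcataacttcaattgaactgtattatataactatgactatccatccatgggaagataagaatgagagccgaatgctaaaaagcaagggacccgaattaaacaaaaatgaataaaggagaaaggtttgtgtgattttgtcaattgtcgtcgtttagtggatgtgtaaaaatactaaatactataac
LOX4 promoter (chr1:27308263-27308512, plus strand): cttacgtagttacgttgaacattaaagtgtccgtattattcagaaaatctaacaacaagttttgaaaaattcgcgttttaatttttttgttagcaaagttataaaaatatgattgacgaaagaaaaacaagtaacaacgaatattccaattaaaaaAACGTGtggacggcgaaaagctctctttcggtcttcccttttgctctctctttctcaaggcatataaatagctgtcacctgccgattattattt
JAZ3 promoter (chr3:6119457-6119706, plus strand): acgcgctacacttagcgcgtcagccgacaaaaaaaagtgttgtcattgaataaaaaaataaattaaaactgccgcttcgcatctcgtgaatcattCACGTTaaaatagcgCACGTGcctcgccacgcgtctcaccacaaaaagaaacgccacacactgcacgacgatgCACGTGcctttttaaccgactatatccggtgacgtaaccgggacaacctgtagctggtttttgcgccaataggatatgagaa

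In the comparison of epidermal miR165a with epidermal REV cells, the peripheral and the central domain of the surface layer, 14 members were higher and 0 lower in miR165a cells. These were 41.2% of the members, against 12.0% of the 20703 genes tested. They included 6 of 11 synthesis genes (LOX3, LOX4, LOX6, AOS, AOC1 and OPR3), CYP94B3 of the conversion genes, 4 of 12 repressors (JAZ1, JAZ3, JAZ6 and JAZ7) and all 3 response genes. The median log2 fold change of the 17 members with a value was 1.32, and that of the 5712 genes with a value was 0.75, so genes listed anywhere were mostly higher in miR165a cells too. Of the 14 early wound and touch genes, 8 stood in a table. Of the 14, 5 were also higher and 0 lower, with ZAT10, SZF1, TCH3 and WRKY33 at 1.06 to 1.34. Of 5 photosynthesis genes, markers of green mesophyll, 4 were higher, and their summed level was 5517 in miR165a and 2060 in REV cells. All 4 abaxial markers were higher too, with sums of 1624 and 132. The part of these genes' cells, or of wounding, in the members' difference was not tested.

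**Figure D3:**
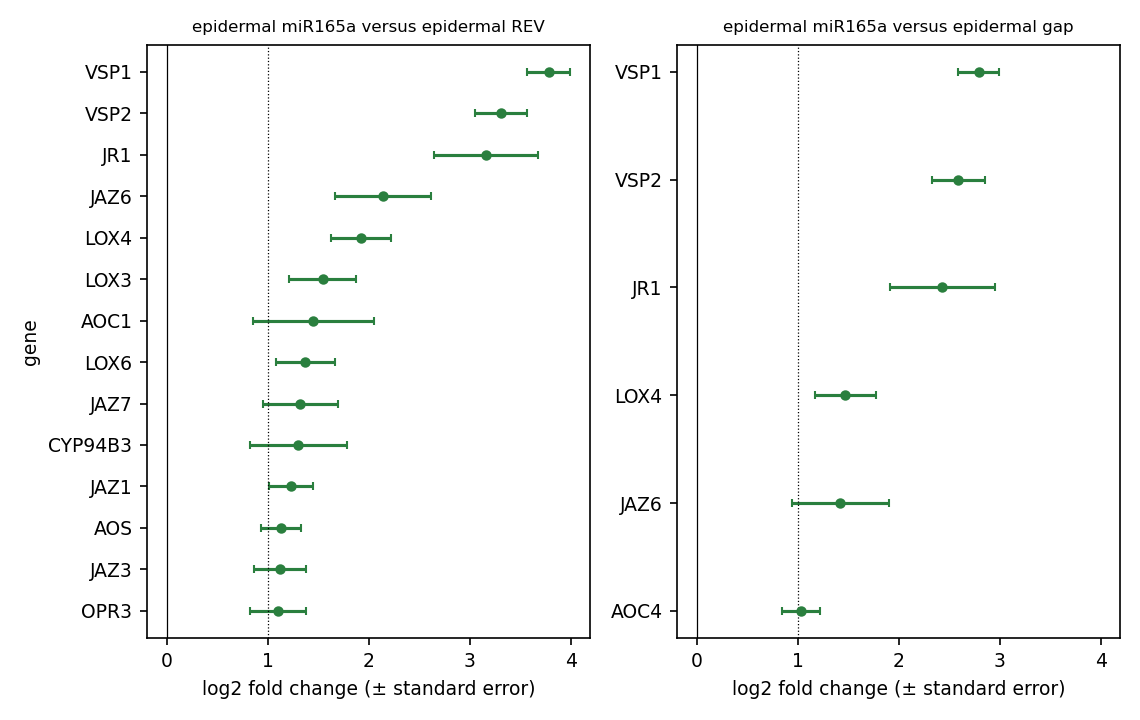
Log2 fold change with its standard error (bars) of each member called in epidermal miR165a against epidermal REV cells (left, 14 members) and against epidermal gap cells (right, 6 members). The dotted line is the limit of 1. VSP1, VSP2 and JR1 lead both panels.

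LOX3 and LOX4 encode 13-lipoxygenases that open the pathway, and each was higher in epidermal miR165a than in epidermal REV cells. LOX4 (AT1G72520) had a level of 13319 in epidermal miR165a cells, 4816 in gap cells and 3513 in epidermal REV cells. Below the epidermis it had 13287 in miR165a cells, 11116 in all negative cells and 9040 in REV cells. It was called against epidermal REV cells (1.92 ± 0.30, adjusted p = 2.67e-09) and against gap cells (1.47 ± 0.30, adjusted p = 3.72e-05), and its levels in the miR165a cells of the 2 layers differed by 0.00 on the log2 scale. LOX3 ranged from 4841 in epidermal REV to 18246 in all negative cells, and its difference between epidermal miR165a and gap cells, 0.84 ± 0.33, was not called. Against epidermal REV cells it was higher by 1.54 ± 0.33 (adjusted p = 2.21e-05), and no test between LOX3 and LOX4 was run. LOX6, another 13-lipoxygenase, was higher in epidermal miR165a than epidermal REV cells by 1.37 ± 0.29 (adjusted p = 1.93e-05).

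AOS and OPR3 had their lowest levels in epidermal REV and their highest in sub-epidermal REV cells. The lead over the next population, 0.03 for AOS and 0.29 for OPR3 on the log2 scale, was not called. Nor was the step from gap to epidermal REV cells, of 0.45 and 0.15. AOS, the allene oxide synthase, ran from 1863 in epidermal REV to 6895 in sub-epidermal REV cells, and OPR3, which reduces the cyclic precursor, from 1743 to 4932 in the same populations. Each was higher in epidermal miR165a than in epidermal REV cells, AOS by 1.13 ± 0.20 (adjusted p = 4.40e-07) and OPR3 by 1.10 ± 0.28 (adjusted p = 4.47e-04).

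The allene oxide cyclases AOC1 and AOC2 were the synthesis genes with the steepest rise from epidermal to sub-epidermal REV cells. AOC1 had 35.2 in epidermal REV, 64.4 in gap and 96.3 in epidermal miR165a cells, and 155, 166 and 328 in sub-epidermal miR165a, all negative and sub-epidermal REV cells. AOC2 had 11.8, 16.3 and 20.9 in the same epidermal order, and 63.5, 69.1 and 133 in the sub-epidermal order. Both had the same order of populations, with no neighbouring step called. AOC1 to AOC3 lie side by side on chromosome 3, and AOC1 and AOC2 share 89.9% of coding bases and a run of 47, AOC1 and AOC3 a run of 73, so the counts of AOC1 and AOC2 are uncertain. AOC3 was called lower in epidermal REV than sub-epidermal REV cells (-1.24 ± 0.22, adjusted p = 1.08e-07). AOC4 was called only against gap cells, higher in epidermal miR165a cells by 1.03 ± 0.19 (adjusted p = 5.68e-06), and DAD1, a lipase gene, was lower in epidermal REV than sub-epidermal REV cells (-1.44 ± 0.44, adjusted p = 0.00435).

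Of the conversion genes, JAR1, which makes the active conjugate, was called in no comparison within the epidermis. Its level was 503 in epidermal miR165a, 474 in gap and 419 in epidermal REV cells, and 810, 1158 and 1740 in sub-epidermal miR165a, all negative and sub-epidermal REV cells. Epidermal cells were below sub-epidermal cells among REV cells (-2.06 ± 0.21) and among cells without a domain marker (-1.29 ± 0.21), and the difference among miR165a cells, -0.69, was not called. Sub-epidermal miR165a cells were below sub-epidermal REV cells by -1.10 ± 0.21 (adjusted p = 2.26e-06). CYP94B3, which oxidises the conjugate, ran from 230 in epidermal REV to 1746 in sub-epidermal REV cells, and no neighbouring step, of 0.24 to 0.85 with an SE of 0.48, was called. CYP94C1, of a later oxidation, was lower in epidermal REV cells than in sub-epidermal REV (-1.51 ± 0.57, adjusted p = 0.0254) and sub-epidermal miR165a cells (-1.36 ± 0.57, adjusted p = 0.0374).

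Among the repressors, JAZ6 had the widest range, from 356 in epidermal REV and 583 in gap to 1566 in epidermal miR165a cells. Below the epidermis it had 2343 in miR165a, 2083 in all negative and 1548 in REV cells. It was called in epidermal miR165a against REV (2.14 ± 0.48, adjusted p = 6.11e-05) and gap cells (1.42 ± 0.48, adjusted p = 0.028). JAZ3 rose from 144 in epidermal REV to 735 in sub-epidermal REV cells. JAZ7 was the member whose level fell most between all negative cells (741) and sub-epidermal REV cells (338), by -1.13 ± 0.37 (adjusted p = 0.0214), and its lowest level was 183, in epidermal REV cells. JAZ1 was lower in epidermal REV than in sub-epidermal REV cells by -1.20 ± 0.22 (adjusted p = 6.84e-07), with a mean count over all libraries of 13666.

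JAZ10, a repressor gene itself induced by the hormone, was the member with levels whose lowest was not in epidermal REV cells. Its level was 1380 in epidermal miR165a, 1399 in gap and 1814 in epidermal REV cells, and 3493, 3688 and 3899 in sub-epidermal miR165a, all negative and sub-epidermal REV cells. All epidermal levels thus lay below the sub-epidermal ones, and epidermal miR165a cells had the lowest. The differences among the epidermal populations were not called, with epidermal miR165a at -0.39 against REV and -0.02 against gap cells. It was lower in epidermal than sub-epidermal miR165a cells (-1.34 ± 0.33, adjusted p = 6.64e-04), in gap than all negative cells (-1.40 ± 0.33, adjusted p = 2.30e-04) and in epidermal than sub-epidermal REV cells (-1.10 ± 0.33, adjusted p = 0.00416). The annotation places a long non-coding RNA gene on the opposite strand over 71 of its bases. The receptor gene COI1 and the activators MYC2, MYC3 and MYC4 were called in none of the 15 comparisons. The annotated span of MYC2 shares nearly its whole length, 3241 bases, with a gene on the other strand. Reads without strand cannot be told apart where the exons of that pair overlap, and the exons were not compared.

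Against epidermal gap cells, which hold neither domain marker, epidermal miR165a cells had 6 members higher and 0 lower: LOX4, AOC4, JAZ6, VSP1, VSP2 and JR1. These were 17.6% of the members, against 3.75% of genes tested. The median log2 fold change of the 16 members with a value was 0.80, and that of all genes with a value 0.17. None of the 14 wound and touch genes was called here, but only 8 stood in any table. A list this short could hold few calls at 3.75%. The stomata and myrosin markers FAMA (-3.45 ± 0.44) and TGG1 (-2.40 ± 0.73) were lower and the abaxial marker YAB3 (2.17 ± 0.25) was higher in miR165a cells, and their part was not tested. Epidermal REV cells differed from gap cells in 0 members of either direction by DESeq2, while 1.49% of genes tested were higher and 5.12% lower in REV cells. Of the 17 members with a value, 14 were lower and 3 higher in REV cells, with a median of -0.47 against -0.40 for all genes with a value. By their solved SEs, VSP1 (-0.99 ± 0.21) and VSP2 (-0.72 ± 0.27) passed the limit on p but not that on fold change. Counts at an unadjusted p cannot be given, as the tables hold only called genes. In the fit on those 2 populations alone, VSP1 was called lower in epidermal REV cells, right at the limit of 1 (SE 0.18, adjusted p = 2.05e-06).

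**Figure D4:**
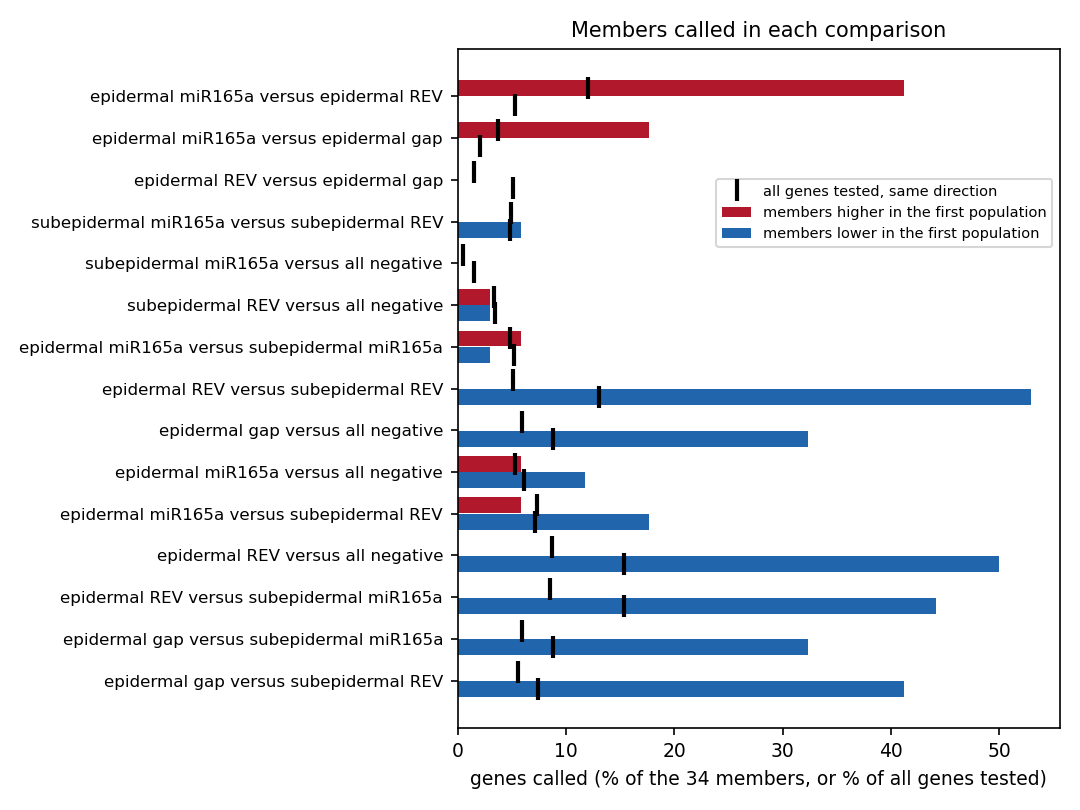
Share of the 34 members called higher (red) or lower (blue) in the first population of each of the 15 comparisons, in percent, with the share of all genes tested that were called in the same direction (black ticks). Members exceed the ticks most where epidermal REV or gap cells are set against miR165a or sub-epidermal cells, up to 52.9% against 13.0%. Between epidermal REV and gap cells no member was called.

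Beneath the epidermis the same domains differed in few members. Sub-epidermal miR165a and sub-epidermal REV cells differed in 2 members, JAR1 and JR1, both lower in miR165a cells (5.88% of members, 4.79% of genes tested), and the share is near the background. Sub-epidermal miR165a and all negative cells differed in 0 members, with 0.531% of genes higher and 1.54% lower. Sub-epidermal REV cells had JR1 higher than all negative cells (2.17 ± 0.52, adjusted p = 6.27e-04, 2.94% of members and 3.37% of genes tested) and JAZ7 lower (2.94% and 3.45%). The fits on 2 populations also listed AOC1 as higher in sub-epidermal REV cells, by 1.18 ± 0.35 over all negative cells, and lower by -1.30 ± 0.37 in miR165a cells, where the fit on 6 did not call it. Of the 5 vascular markers, 4 were higher in sub-epidermal REV than in sub-epidermal miR165a cells.

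Between layers, epidermal REV cells fell below sub-epidermal REV cells in 18 members and exceeded them in 0 (52.9% of members, 13.0% of genes tested). The 18 were 8 of 11 synthesis genes, 3 of 4 conversion genes, JAZ1, JAZ3, JAZ6 and JAZ10 and the 3 response genes. JR1 (-3.61 ± 0.52), AOC2 (-3.50 ± 0.66), AOC1 (-3.22 ± 0.60) and CYP94B3 (-2.93 ± 0.48) had the largest changes, and JAR1 (-2.06 ± 0.21, adjusted p = 2.80e-21), AOS (-1.89 ± 0.20, adjusted p = 1.04e-18), JAZ3 (-2.35 ± 0.26, adjusted p = 5.53e-18) and VSP2 (-2.08 ± 0.26, adjusted p = 8.33e-14) the smallest adjusted p. The median over 19 members with a value was -1.89, and over all genes with a value -1.05. All 5 photosynthesis genes and 3 of the 14 wound and touch genes (TCH3, WRKY33 and WRKY40) were lower in the epidermal cells too, as were 4 of 5 vascular markers, whose part was not tested.

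The gap cells likewise lay below the all negative cells, in 11 members against 0 above (32.4% of members, 8.81% of genes tested). AOS (-1.41 ± 0.20), JAZ3 (-1.69 ± 0.26), VSP2 (-1.93 ± 0.26) and JAR1 (-1.29 ± 0.21) had the smallest adjusted p, of 7.38e-12 to 1.11e-08. Of the wound and touch genes TCH3 was lower, as were 3 of 5 photosynthesis genes (RBCS1A, LHCB3 and CAB1), 3 of 5 vascular markers (SUC2, APL and AT5G57130), FIL of 4 abaxial markers and TGG2. FAMA was higher, and the part of these cells was not tested. Epidermal and sub-epidermal miR165a cells differed in 3 members: VSP1 and JR1 were higher in the epidermis (5.88% of members, 4.85% of genes tested) and JAZ10 lower (2.94% and 5.17%). JR1 was higher there by 3.14 ± 0.52 (adjusted p = 4.81e-08). No synthesis or conversion gene was called between the miR165a cells of the 2 layers. There 4.85% of genes tested were higher in the epidermis and 5.17% lower, so 15 genes could hold few calls. Between the REV cells 11 of 15 such genes were called, all lower in the epidermis, against 13.0% of genes tested. Of these, AOC1, AOC2 and CYP94B3 could be tested for a difference between the 2 contrasts, in the test across layers. The wound and touch genes were not called between the miR165a cells of the 2 layers either, where so short a list could hold few calls.

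Across domains and layers the low values of epidermal REV and gap cells recurred. Epidermal REV cells were lower than all negative cells in 17 members (50.0%, against 15.4% of genes tested) and than sub-epidermal miR165a cells in 15 (44.1%, against 15.4%). Of the 14 wound and touch genes, 6 and 7 were lower in these comparisons, as were all 5 photosynthesis genes and all 4 abaxial markers in each. Of the 5 vascular markers, 3 were lower than in all negative cells, and PXY was higher in both comparisons. Gap cells were lower than sub-epidermal miR165a cells in 11 members (32.4%, against 8.82%) and than sub-epidermal REV cells in 14 (41.2%, against 7.44%), with 1 of the wound and touch genes lower in each and ERF5 higher in the second. Lower with them were 4 of 5 photosynthesis genes in the first and 4 of 5 vascular markers in the second, while FAMA and TGG1 were higher in gap cells in both and the 4 abaxial markers in the second. The part of these cells was not tested. Epidermal miR165a cells had VSP1 and JR1 above and AOC2, JAR1, JAZ3 and JAZ10 below all negative cells (5.88% against 5.30%, and 11.8% against 6.13%). They had VSP1 and VSP2 above and AOC1, AOC2, JAR1, CYP94B3, JAZ3 and JAZ10 below sub-epidermal REV cells (5.88% against 7.33%, and 17.6% against 7.10%).

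A z test (two-sided) of the solved fold changes and their SEs asked whether the domain difference itself changed with the layer, adjusted over all genes that could be resolved. Only genes listed in enough tables could be, so each share of genes past the limit is high. For miR165a minus REV cells, 6 of 9 members passed, against 40.4% of 2935 genes, all 6 with the more positive value in the epidermis. JR1 differed most, with 3.16 in the epidermis, -3.58 below it and a difference of 6.74 ± 0.74 (adjusted p = 6.81e-18). VSP1 (3.41 ± 0.29) and VSP2 (2.87 ± 0.37) had a large epidermal and a small sub-epidermal value. AOC1 (2.53 ± 0.85), CYP94B3 (2.08 ± 0.68) and JAZ3 (1.64 ± 0.37) were called higher in miR165a cells in the epidermis and had log2 values of -1.08, -0.78 and -0.52 below it, where they were not called. JAZ7 (0.41 ± 0.52), JAZ10 (-0.24 ± 0.47) and AOC2 (1.90 ± 0.93) did not pass.

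**Figure D5:**
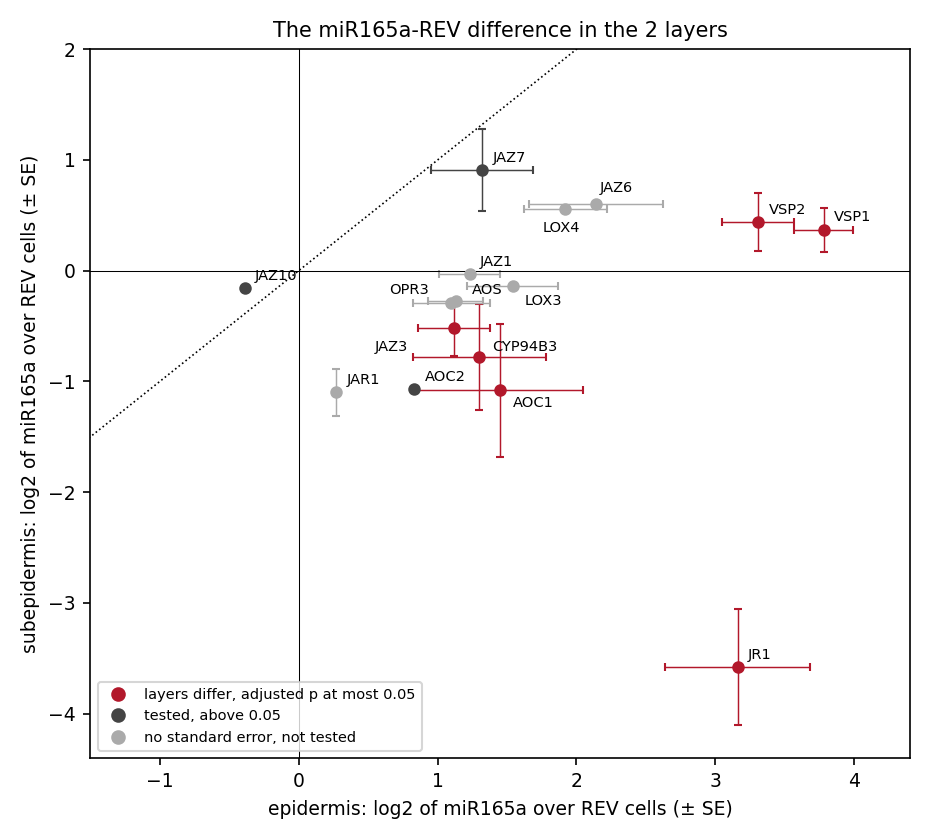
Log2 of miR165a over REV cells in the epidermis (x) and below it (y) for the 16 members with both values, with standard errors as bars where they could be solved. Red points passed the test of the difference between layers (6 members), dark points did not (3) and pale points could not be tested (7). The dotted line marks equal values, and JR1 lies furthest from it.

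For miR165a cells minus cells with neither domain marker, 4 of 8 members passed (22.1% of 2723 genes): JR1, VSP2, VSP1 and JAZ3. For REV cells minus those cells, 3 of 14 passed (19.4% of 3244 genes), which is near the background. JR1 was 0.73 lower than gap cells on the log2 scale in the epidermis and 2.17 higher than all negative cells below it, and JAR1 and VSP1 had smaller differences.

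Further jasmonate genes were counted beside the members. Of 40 further genes of synthesis, catabolism, signalling and response, 23 stood in a table, and 12 were higher and 0 lower in epidermal miR165a than epidermal REV cells, where 12.0% of genes tested were higher. HPL1, a hydroperoxide lyase that draws on the same substrates as AOS, rose by 3.43 ± 0.40 (adjusted p = 3.01e-16), ERF1, an ethylene and jasmonate response factor, by 1.64 ± 0.20 (adjusted p = 1.61e-15), and CLH1, a chlorophyllase, by 2.61 ± 0.41 (adjusted p = 2.04e-09). JAM1, a bHLH repressor of jasmonate responses, rose by 1.31 ± 0.26 (adjusted p = 3.88e-06). Against gap cells 4 of the 40 were higher (3.75% of genes tested), and gap cells exceeded epidermal REV cells in 4 (5.12%). Between REV cells of the 2 layers 17 were lower in the epidermis (13.0%) and 2 higher. The 2 were CLH1 and LOX1, a 9-lipoxygenase outside the jasmonate pathway that followed the epidermis, with levels of 563 to 677 there and 74.5 to 104 below it. Beneath the epidermis CLH1 was higher in miR165a than in REV cells by 2.71 ± 0.42 (adjusted p = 5.00e-09).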

How the data were processed

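RNA of 6 populations, with 3 libraries each, was sequenced by the authors after FACS of propidium iodide-negative protoplasts and library preparation with a NEBNext Ultra RNA kit. Replicates are called biological, but separate harvests are not described, so p-values may measure only technical spread. Per the labels and methods, reads passed FastQC and cutadapt and were aligned to TAIR10 with TopHat by the authors, who counted exonic reads with HTSeq and compared populations with DESeq2. Tool versions are not given in the sources used here.

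The signal in the deposited tables is the authors' mean over libraries of counts divided by size factors. The log2 fold changes and their standard errors are as the authors deposited them, and whether they were shrunken is not stated. The deposited p-value columns hold the authors' unadjusted and Benjamini-Hochberg adjusted p. These columns are the authors' own comparisons, and they were used because the tables hold nothing else. The depth of each library is not given in the tables.

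Of 19 tables, 15 came from a fit on all 6 populations, since fold changes add up around populations to within 3.20e-14 and mean counts are identical, and 4 came from fits on 2 populations, kept as alternatives. The number of genes tested (20703 or 22074) was recovered from the ratio of adjusted to unadjusted p. Levels were solved for 3832 genes as shares of the mean count. Over the genes in 4 tables of 2 populations, the ratio of deposited to solved mean counts had medians of 0.993 to 1.01. Variances per population were solved from the standard errors, with residuals of at most 1.62%. The layer test was checked on data made with a known log2 difference of 3 in 200 genes. It found 92% of them and passed 5 of 1532 unchanged genes. Smaller differences, as most of those reported here are, were not covered by that check.

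The members and the lists of other jasmonate, wound and marker genes were chosen with earlier results of these data known. All members could be named. Full values went to those called in the most comparisons and to up to 4 per comparison with the smallest adjusted p. In the list of other jasmonate genes, 2 identifiers carry another symbol in the reference and were dropped. Positions, coding sequences and windows before gene starts came from the RefSeq annotation of TAIR10.1. Python 3.11.15, numpy 2.4.6, pandas 2.3.3 and scipy 1.17.1 were used.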

Additional observations from a re-analysis of the deposited data

Results flagged for a closer look

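The test of the difference between layers passed in 13 values of 7 members, given here as the epidermal minus the sub-epidermal log2 fold change. For miR165a minus REV cells the differences were 6.74 in JR1, 3.41 in VSP1, 2.87 in VSP2, 2.53 in AOC1, 2.08 in CYP94B3 and 1.64 in JAZ3. For miR165a cells minus cells without a domain marker they were 3.83 in JR1, 2.72 in VSP2, 2.56 in VSP1 and 0.98 in JAZ3. For REV cells minus cells without a domain marker they were -2.91 in JR1, -0.84 in VSP1 and -0.77 in JAR1. The 3 contrasts share populations, so the values of a gene are not independent of each other. The sub-epidermal cells without a domain marker also carried the phloem markers SUC2 and APL, at 521 and 113, and the part of such cells in these differences was not tested.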

How the results depend on the processing

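Of 49 alternative counts of members, 40 stayed within 1.5 times the reported one and 9 did not. Some of the 40 could not move. The lowest mean count of a listed member was 52.4 (AOC2), so a limit of 50 could not change a count of called members. Stricter limits could not lower counts that were already 0. With a log2 limit of 1.5, members called fell from 14 to 6 in epidermal miR165a against epidermal REV cells, from 6 to 3 against gap cells, from 11 to 5 in gap against all negative cells, from 2 to 1 in sub-epidermal miR165a against REV cells and from 2 to 1 in sub-epidermal REV against all negative cells. With an adjusted p of at most 0.01 the last count was 1 as well, and the layer difference of REV minus marker-free cells passed in 1 member in place of 3. With standard errors 1.5 times wider it passed in 0. The fit on 2 populations called 1 member (VSP1) in epidermal REV against gap cells, in place of 0. The cause was not tested. All 18 named values that a fit on 2 populations also lists kept their direction. Leaving out VSP1, VSP2, AOC1 and AOC2, close copies, was chosen after seeing the data. It left 11 members in epidermal miR165a against REV cells and 14 in epidermal against sub-epidermal REV cells. Such a subtraction could not change the direction of the members that remained. No paired analysis was possible because the tables hold no values per library, and leaving out each library was not run for the same reason.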
